A study of Mus musculus with 4 samples.

Results

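Toll-like receptor 4 (TLR4), its accessory proteins and related receptors were followed by RNA level in mouse bone marrow-derived dendritic cells (BMDC) that had met a tumour line or its products. The set held 10 genes: Tlr4, Cd14, Ly96, Cd180, Ly86, Tlr2, Tlr7, Tlr8, Myd88 and Traf6. Its members were every array probe set annotated to 1 of these symbols, 19 of the 45037 probe sets that were not array controls, and 10 of the 18193 genes measured. The symbols had been chosen with their signals on these same arrays in view, so all the values below describe these arrays and no test was made of them.

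Bone marrow of male C57BL/6 mice aged 6 to 8 weeks had been grown for 7 days with 500 U/ml of GM-CSF, a myeloid growth factor. The live coculture held BMDC with 1D8 cells, a line from mouse ovarian surface epithelium that the labels treat as tumour, at 1 tumour cell to 5 BMDC. The irradiated coculture held the same mix after the 1D8 cells had received 50 Gy. The conditioned medium sample had BMDC in medium with 25% (v/v) 1D8 supernatant and no added tumour cell, and the control was BMDC alone. All 4 were sorted by flow cytometry after staining for CD80, a costimulatory surface protein, and each gave 1 biological sample and 1 array. There were therefore no replicates, no value has an error, and higher and lower refer to these arrays only. No array of 1D8 cells alone was analysed here.

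TLR4 senses bacterial lipopolysaccharide and several host molecules set free by damaged tissue. CD14 takes up lipopolysaccharide and passes it to MD-2, the product of Ly96, which sits on the TLR4 ectodomain and makes the contact with the ligand. CD180 resembles the ectodomain of TLR4 but lacks its signalling domain, pairs with MD-1, the product of Ly86, and restrains TLR4 signalling in dendritic cells and macrophages while activating B cells. TLR2 recognises bacterial lipoproteins at the cell surface. TLR7 and TLR8 sit in endosomes, where TLR7 recognises single-stranded RNA. MyD88 is the adaptor that joins these Toll-like receptors to their kinases, and TRAF6 is the ubiquitin ligase that relays the signal onward to NF-kappaB.

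The array files hold no probe sequence. Sequence upstream of the transcription start came from RefSeq (GRCm38.p6) for 6 of the members, and 4 are printed here because their genes gave contrasting signals: Traf6, Tlr2, Myd88 and Cd180. Each run is the 250 bases before the annotated start, 5′ to 3′ on the gene's strand. Capitals mark matches, on either strand, to the letters GGGNNNNNCC (NF-kappaB), GAGGAA (PU.1 and other ETS factors), TGANTCA (AP-1) or GAAANNGAAA (an interferon response element). For Cd180 the more upstream of its listed starts is shown. The Tlr2 window overlaps the annotated span of its gene, chr3:83836272-83841824, so part of it lies inside the gene.
Traf6, chr2:101678170-101678419, + strand: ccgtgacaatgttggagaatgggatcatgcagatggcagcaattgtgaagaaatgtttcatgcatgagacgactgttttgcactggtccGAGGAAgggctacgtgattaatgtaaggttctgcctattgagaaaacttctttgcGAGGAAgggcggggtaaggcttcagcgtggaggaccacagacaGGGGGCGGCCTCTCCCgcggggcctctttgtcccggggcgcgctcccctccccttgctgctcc
Tlr2, chr3:83841609-83841858, - strand: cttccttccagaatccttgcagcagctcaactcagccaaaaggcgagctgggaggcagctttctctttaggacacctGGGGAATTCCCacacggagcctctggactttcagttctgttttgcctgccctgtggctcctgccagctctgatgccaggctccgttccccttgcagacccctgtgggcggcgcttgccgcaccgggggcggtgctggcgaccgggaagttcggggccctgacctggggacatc
Myd88, chr9:119340019-119340268, - strand: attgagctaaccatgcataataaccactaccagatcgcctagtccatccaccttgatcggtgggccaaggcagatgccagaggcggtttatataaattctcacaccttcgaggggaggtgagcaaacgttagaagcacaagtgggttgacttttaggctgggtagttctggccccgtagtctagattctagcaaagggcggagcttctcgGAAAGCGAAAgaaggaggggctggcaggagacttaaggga
Cd180, chr13:102693297-102693546, + strand: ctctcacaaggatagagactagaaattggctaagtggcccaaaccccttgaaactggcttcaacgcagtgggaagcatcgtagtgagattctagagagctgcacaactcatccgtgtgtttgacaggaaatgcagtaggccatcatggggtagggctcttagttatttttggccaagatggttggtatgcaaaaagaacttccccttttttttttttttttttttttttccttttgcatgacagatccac

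In the Tlr2 window the NF-kappaB letters matched at GGGAATTCCC, which reads the same on both strands. An overlapping match starts 1 base earlier, and both lie inside the annotated span of the gene. Traf6 had 2 overlapping NF-kappaB matches and 2 matches to GAGGAA. Myd88 had 1 match to the interferon letters, GAAAGCGAAA, and the window of Cd180 held none of the 4 motifs. These letters are common: of 32851 such windows, 45.8% held the NF-kappaB pattern, 23.3% GAGGAA, 6.75% the AP-1 pattern and 2.98% the interferon pattern. A match is a description of the letters and was not tested as a binding site.

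Signals are linear MAS5 values, the Affymetrix summary of perfect-match minus mismatch probes. Signals under 44.3, the 50th percentile of all signals, were set to that floor before log2 ratios were taken, and a gene was counted when signals differed at least 2-fold. Each gene was read at its brightest probe set, and for all 10 members this exceeded the floor on all 4 arrays. Of the 19 probe sets, 13 exceeded the floor on all 4 arrays, 3 on some arrays and 3 on none. The members with a single probe set, 7 of the 10, have no second reading.

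The arrays had been brought to the same trimmed mean signal of 150.0. The control stood apart, with 58.8% of genes above the floor, against 61.8% to 62.5% on the treated arrays. Its median signal was 38.7, against 46.8 in live coculture, 45.3 in irradiated coculture and 46.6 in conditioned medium. Some markers of cells other than BMDC were high in the cocultures. Of 10 mesenchymal and matrix markers, at their brightest probe sets, 2 were at least 2-fold higher in live coculture, 3 in irradiated coculture and 0 in conditioned medium. Over all genes those shares were 3.36%, 3.47% and 2.30%. The list medians were 0.00, 0.00 and 0.08 in log2 ratio. Another probe set of Fn1 was past 2-fold on all 3 treated arrays, with 1551.1, 1531.5 and 413.9 in the same order, against 142.0 in the control. Of 14 epithelial and mesothelial markers, 6 were at least 2-fold higher in live coculture, 7 in irradiated coculture and 0 in conditioned medium. Their summed signal was 2983 in live coculture, 3629 in irradiated coculture and 835 in conditioned medium, against 502 in the control. None of the 14 was at 0, but Krt19, a keratin, was under the floor in conditioned medium and in the control (22.2 and 8.6). The 12 leukocyte and myeloid markers summed to 47569 in live coculture, 50926 in irradiated coculture, 51768 in conditioned medium and 56224 in the control, and none of them differed 2-fold from the control at its brightest probe set. Among dendritic cell markers, Itgax (the integrin CD11c) and the MHC class II genes were bright, while Flt3 and Zbtb46 had 45.5 and 56.1 in the control, close to the floor. The complement genes C1qa, C1qb and C1qc, which mark macrophages, had 4601, 5629 and 5930 in the control, so markers of both cell types were present in the sorted cells.

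**Figure D1:**
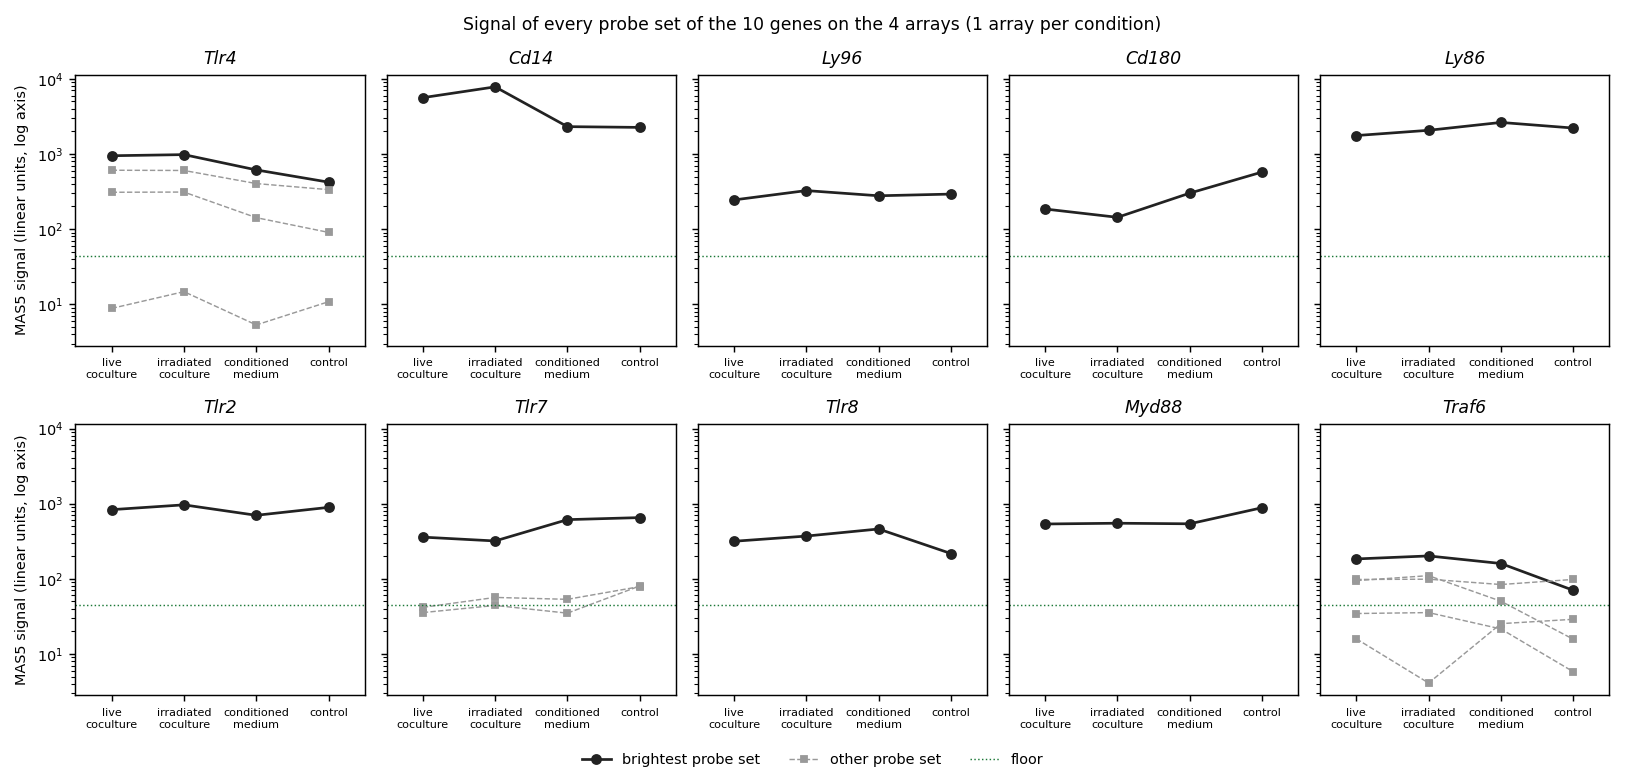
MAS5 signal (linear units on a log axis) of every probe set of the 10 genes on the 4 arrays, 1 panel per gene and 1 array per condition, with filled circles for the brightest probe set, grey squares for the others and a dotted line at the floor of 44.3. Cd14 stood at 5615 and 7823 in the cocultures against 2311 in conditioned medium and 2258 in the control, while Cd180 was highest in the control at 574.9.

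The lipopolysaccharide receptor Tlr4 and its coreceptor Cd14 both gave higher signals in the cocultures than in control BMDC, while Ly96, which encodes the partner of TLR4, was close to the control. Tlr4 had a signal of 947.4 in live coculture, 980.4 in irradiated coculture and 613.5 in conditioned medium, against 421.6 in the control. The cocultures were thus high and near each other, conditioned medium lay between, and the control was lowest. The ratio to the control was 2.25-fold for the live coculture, 2.33-fold for the irradiated coculture and 1.46-fold for conditioned medium. In bulk RNA of this kind, more or fewer cells with a transcript and more or less transcript per cell cannot be told apart.

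The other probe sets of Tlr4 above the floor also had the cocultures high, conditioned medium between and the control lowest, with other sizes of ratio. One gave signals of 607.5 in live coculture, 603.0 in irradiated coculture and 403.7 in conditioned medium, against 335.1 in the control, ratios of 1.81-fold, 1.80-fold and 1.20-fold. Another was dimmer, with 309.2, 311.2 and 142.0 in the same 3 treated conditions against 90.4 in the control, and showed larger ratios of 3.42-fold, 3.44-fold and 1.57-fold. Over these 3 probe sets the log2 ratio averaged 1.27 ± 0.47 (SD over probe sets of the same array pair, n = 3) in live coculture, 1.28 ± 0.47 in irradiated coculture and 0.49 ± 0.20 in conditioned medium. Such an SD measures disagreement between probes and not between cultures. Its remaining probe set was under the floor on every array, and with it averaged in, the log2 ratio was 0.95 in live and 0.96 in irradiated coculture, short of 2-fold.

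Cd14, read by a single probe set, had 5615 in live coculture and 7823 in irradiated coculture. It had 2311 in conditioned medium, against 2258 in the control. Only the samples that had contained tumour cells were high among these 4, 2.49-fold and 3.46-fold above the control for the live and the irradiated coculture, and conditioned medium differed from the control by 1.02-fold. Set directly against conditioned medium, Cd14 was 2.43-fold higher in live coculture and 3.38-fold higher in irradiated coculture. Epithelial and mesothelial markers had summed signals of 2983 and 3629 on those coculture arrays, against 835 in conditioned medium, and the part of such cells in the Cd14 signal was not tested.

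Ly96 had 244.5 in live coculture, 325.6 in irradiated coculture and 277.7 in conditioned medium, against 292.5 in the control. These signals all lay within 1.33-fold of each other, with the cocultures at the bottom and the top of the range. At its brightest probe set, the log2 ratio of Tlr4 to the control exceeded that of Ly96 by 1.43 in live and 1.06 in irradiated coculture. In conditioned medium the excess was 0.62. Another Tlr4 probe set had a log2 ratio of 0.27 in conditioned medium, against -0.07 for Ly96. Probe sets of the same gene differed in that comparison with an SD of 0.45. Unequal change of receptor and partner is therefore described for the cocultures only.

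The inhibitory receptor Cd180 ran the other way, while Ly86, which encodes its partner MD-1, was near the control. Cd180 had a signal of 185.1 in live coculture, 143.5 in irradiated coculture and 301.1 in conditioned medium, against 574.9 in the control. The control was the highest of the 4, conditioned medium came next and the cocultures were lowest. Cd180 was 3.11-fold lower in live coculture, 4.01-fold lower in irradiated coculture and 1.91-fold lower in conditioned medium, the last short of 2-fold. Ordered from the lowest ratio, it stood at place 70 of 18193 genes in live coculture, 41 in irradiated coculture and 342 in conditioned medium. It was also 2.10-fold lower in irradiated coculture than in conditioned medium, a call that the 75th percentile floor ended. Median centring took Cd180 past 2-fold in conditioned medium against the control (log2 ratio -1.05).

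Ly86 had 1759 in live coculture, 2066 in irradiated coculture and 2629 in conditioned medium, against 2214 in the control. Its log2 ratio to the control was -0.33, -0.10 and 0.25 for those treated conditions, and no pair of arrays reached 2-fold. Cd180 lay below Ly86 by 1.30, 1.90 and 1.18 on the log2 scale. B cells also carry CD180. Of 7 B cell markers, 1 was at least 2-fold lower in live coculture (background 2.23%), 2 in irradiated coculture (background 2.25%) and 0 in conditioned medium (background 1.41%). Their summed signal was 330 in live coculture, 315 in irradiated coculture and 408 in conditioned medium, against 494 in the control. None was at 0. At or under the floor were 3 in live coculture, 4 in irradiated coculture and 2 in conditioned medium, against 1 in the control. Ratios of such markers are at best bounds. Cd79b had 25.2 in live and 28.6 in irradiated coculture, against 89.8 in the control. In log2 ratio 1 of the 7 lay above 0 in live coculture and 2 in irradiated coculture. Ms4a1 (CD20) had 92.1 in the control and Ebf1 was under the floor on every array. The part of such cells in the Cd180 signal was not tested. The leukocyte and myeloid markers had median log2 ratios of -0.35, -0.20 and -0.09 in live coculture, the irradiated coculture and conditioned medium, against -1.64, -2.00 and -0.93 for Cd180.

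**Figure D2:**
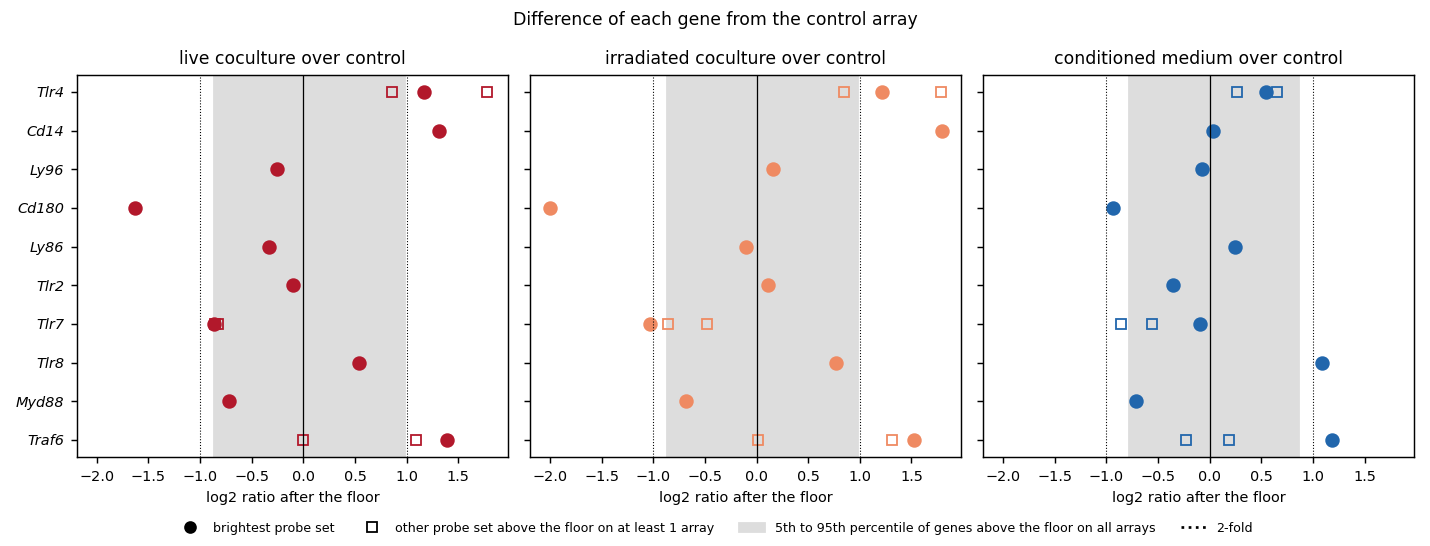
Log2 ratio of each of the 10 genes to the control array in live coculture, the irradiated coculture and conditioned medium, with filled circles for the brightest probe set, open squares for other probe sets above the floor on at least 1 array, a grey band from the 5th to the 95th percentile of genes that exceed the floor throughout, and dotted lines at 2-fold. Cd180 lies left of the band in all 3 panels (-1.64, -2.00 and -0.93), Cd14 lies right of it in the coculture panels only (1.31 and 1.79, against 0.03 in conditioned medium), and the probe sets of Traf6 are spread widely.

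The remaining surface and endosomal receptors differed among themselves. Tlr2 had 832.5 in live coculture, 964.7 in irradiated coculture and 700.2 in conditioned medium, against 893.2 in the control. The highest and lowest of these were 1.38-fold apart, and the control lay inside the range of the treated arrays. Tlr4 exceeded Tlr2 in log2 ratio by 1.27 in live coculture, 1.11 in irradiated coculture and 0.89 in conditioned medium.

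Tlr7 and Tlr8 are neighbours on chromosome X in the RefSeq annotation (GRCm38.p6), with 0 annotated genes between them, and their signals lay on opposite sides of the control. Tlr7 had 358.7 in live coculture, 318.9 in irradiated coculture and 613.1 in conditioned medium, against 652.6 in the control. The cocultures were low and conditioned medium was near the control, with Tlr7 1.82-fold lower in live coculture, 2.05-fold lower in irradiated coculture and 1.06-fold lower in conditioned medium. Its 2 other probe sets were dim. One had 41.7, 56.5 and 53.3 in live coculture, the irradiated coculture and conditioned medium, against 78.7 in the control, and the other had 35.5, 44.2 and 34.9, against 80.3 in the control. Both were therefore lower in conditioned medium too, unlike the brightest probe set, and only bounds could be had where they lay under the floor. The call in irradiated coculture ended after quantile normalization (log2 ratio -0.97) and as the mean over probe sets (-0.79).

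Tlr8 had 315.9 in live coculture, 370.4 in irradiated coculture and 460.3 in conditioned medium, against 217.0 in the control. Here conditioned medium was highest and the control lowest. The ratio was 1.46-fold in live coculture, 1.71-fold in irradiated coculture and 2.12-fold in conditioned medium, the only one at least 2-fold, and short of it after median centring (log2 ratio 0.97). Tlr8 exceeded Tlr7 in log2 ratio by 1.41 in live coculture, 1.80 in irradiated coculture and 1.17 in conditioned medium.

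Of the signalling members, the adaptor Myd88 was lower on every treated array by nearly the same amount. It had 536.5 in live coculture, 549.3 in irradiated coculture and 539.5 in conditioned medium, against 883.8 in the control. The treated arrays were within 1.02-fold of each other and stood 1.65-fold, 1.61-fold and 1.64-fold below the control, short of 2-fold. For Cd14 and Tlr7, by contrast, the conditioned medium signal at the brightest probe set was near the control.

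Traf6 was higher at its brightest probe set but its probe sets disagreed. That probe set had 183.8 in live coculture, 201.6 in irradiated coculture and 159.8 in conditioned medium, against 70.3 in the control, ratios of 2.61-fold, 2.87-fold and 2.27-fold. A second probe set designed from the same sequence accession had 94.6 in live coculture, 110.1 in irradiated coculture and 50.3 in conditioned medium, against 15.7 in the control, which lay under the floor, so the ratios were at least 2.14-fold, 2.49-fold and 1.14-fold. Another, from a different accession, had 98.0 in live coculture, 98.8 in irradiated coculture and 83.9 in conditioned medium, against 98.1 in the control, and so showed no difference in the cocultures. With the bounds of the second probe set included, the log2 ratio over the 3 averaged 0.83 ± 0.73 (SD over probe sets, n = 3) in live coculture. It was 0.95 ± 0.82 in irradiated coculture and 0.38 ± 0.73 in conditioned medium. These means are lower limits and the SDs depend on the floor. No direction is given for Traf6 as a gene. The other 2 probe sets were under the floor throughout.

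Counted together at their brightest probe sets, 3 of the 10 members (Tlr4, Cd14 and Traf6) were at least 2-fold higher in live coculture, on a background of 3.36% of all genes, and 1 (Cd180) was at least 2-fold lower, on a background of 2.23%. In the irradiated coculture 3 were higher (the same members; background 3.47%) and 2 were lower, Cd180 and Tlr7 (background 2.25%). In conditioned medium 2 were higher, Tlr8 and Traf6 (background 2.30%), and 0 were lower (background 1.41%). Traf6 is counted here through 1 of its discordant probe sets. With a gene's probe sets averaged instead, Tlr4 (log2 ratio 0.95) and Traf6 (0.50) fell short of 2-fold in live coculture, as they did in irradiated coculture (0.96 and 0.57), which left 1 member higher in each, Cd14. Since the members were picked with these contrasts in view, nothing is read from the counts. The median log2 ratio of the 10 was -0.18 in live coculture, 0.13 in irradiated coculture and -0.02 in conditioned medium, beside 0 for all genes in each case, because members higher and lower offset each other. These 3 comparisons share the control array, so a high or low reading there would appear in each of them.

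Comparisons between treated arrays do not use the control. Between the live and the irradiated coculture 0 of the 10 members reached 2-fold in either direction (backgrounds 0.368% higher and 0.302% lower). In live coculture 8 of the 10 were lower, some by very little (log2 ratio -0.03 for Myd88 and -0.05 for Tlr4). The median log2 ratio was -0.17 for the members and -0.0007 for genes above the floor on all 4 arrays. The share of all genes that were lower was not counted, and nothing is read from the 8. The member ratios ran from 0.718-fold for Cd14 to 1.29-fold for Cd180, while genes that exceeded the floor on all 4 arrays had an SD of 0.30 in log2 ratio. Between the live coculture and conditioned medium 1 member, Cd14, was at least 2-fold higher (background 1.75%) and 0 were lower (background 1.14%). Between the irradiated coculture and conditioned medium Cd14 was higher (background 1.95%) and Cd180 was lower (background 1.24%). Probe sets of the same gene differed with an SD of 0.25 in log2 ratio between the cocultures, but 0.50 for the live coculture, 0.45 for the irradiated coculture and 0.45 for conditioned medium against the control. This spread measures disagreement between probes, and gives no measure of noise between arrays or cultures.

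The rest of the Toll-like receptor pathway was read in the same way, beside backgrounds of 3.36% of genes higher and 2.23% lower in live coculture, 3.47% and 2.25% in irradiated coculture, and 2.30% and 1.41% in conditioned medium. Of 7 other Toll-like receptors measured, 0 were counted as 2-fold apart from the control on any treated array, close to what these shares give for so short a list. The ratios of Tlr12 (83.6 in live coculture, against 34.0 in the control, at least 1.89-fold higher) and Tlr9 (31.1, against 66.5 in the control, with the live coculture signal under the floor) are bounds and could exceed 2-fold. Tlr13, a mouse receptor for bacterial ribosomal RNA, had 702.0 in live coculture, 654.8 in irradiated coculture and 703.2 in conditioned medium, against 1162 in the control, with the treated arrays again close together. Tlr1, a partner of TLR2, had 299.3, 236.1 and 437.7 in those treated conditions, against 468.5 in the control. The medians of this list were -0.03 in live coculture, 0.04 in irradiated coculture and -0.20 in conditioned medium on the log2 scale.

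Of 8 genes for ligand delivery and receptor trafficking, 2 were higher on each treated array, and 1 was lower in each coculture. Itgam, the CD11b chain of complement receptor 3, was 2.74-fold higher in live coculture, 3.54-fold in irradiated coculture and 2.64-fold in conditioned medium. Lbp, the lipopolysaccharide-binding protein that loads CD14, had 110.9, 138.9 and 99.5 in the same conditions, against 47.6 in the control. Slc15a4, an endolysosomal transporter needed for signalling by TLR7 and TLR9, was 2.75-fold lower in live coculture, 3.02-fold lower in irradiated coculture and 1.95-fold lower in conditioned medium. Unc93b1, the chaperone that carries endosomal Toll-like receptors, had 1840, 2238 and 2417, against 2416 in the control.

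Of 16 adaptors and kinases measured, 0 were higher and 1 was lower in each coculture, and 0 were 2-fold apart in conditioned medium, again near the background. The 1 was Pik3ap1 (BCAP), an adaptor to phosphoinositide 3-kinase, 2.09-fold lower in live and 2.22-fold lower in irradiated coculture, but its other probe set had log2 ratios of 0.41 and -0.44, so its probe sets disagree for the live coculture. Another probe set of Ikbkg, a subunit of the kinase complex that activates NF-kappaB, had log2 ratios of 1.75 in live coculture, 0.72 in irradiated coculture and 1.34 in conditioned medium, unlike its brightest probe set. Of 15 negative regulators, 2 were higher in each coculture and 1 was lower in conditioned medium, at their brightest probe sets. Other probe sets of 3 further regulators were also past 2-fold, with signals lowest in the control. For Tnfaip3, the ubiquitin-editing enzyme A20, log2 ratios there were 2.46 in live coculture, 2.07 in irradiated coculture and 0.94 in conditioned medium. For Tollip they were 1.78, 1.44 and 1.03, and for Irak3, a kinase-like inhibitor, at least 2.28, 1.92 and 1.96, so the count of this list depends on the probe set read. Dusp1, which encodes a MAP kinase phosphatase, was 5.05-fold higher in live coculture and 5.42-fold in irradiated coculture, against 1.25-fold in conditioned medium. Zc3h12a, the RNase Regnase-1, was 2.06-fold higher in live coculture, and Nfkbia, the inhibitor of NF-kappaB, was 2.07-fold higher in irradiated coculture and 1.70-fold higher in live coculture. Of its 4 other probe sets, 3 were past 2-fold in both, with log2 ratios of 1.24, 1.72 and 1.39 in live coculture and 1.75, 1.94 and 1.53 in irradiated coculture. Atf3, a transcriptional repressor of Toll-like receptor responses, was 2.16-fold lower in conditioned medium.

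Of 12 transcription factors at their brightest probe sets, Rel was at least 2.87-fold higher and Relb 2.53-fold lower in live coculture. Relb was at least 3.26-fold lower in irradiated coculture. Rel and Relb encode subunits of NF-kappaB. In conditioned medium the 1 factor higher at its brightest probe set was Irf7, which drives interferon genes, at 3.28-fold. Of 20 genes commonly induced through TLR4, 7 were higher and 2 lower in live coculture, 6 higher and 1 lower in irradiated coculture, and 5 higher and 0 lower in conditioned medium. The largest ratios were those of Cxcl1, Cxcl2, Ptgs2, Il1b and Il6, and Il6 had 365.3, 369.1 and 115.8 in the 3 treated conditions, against 35.0 in the control, which was under the floor. Tnf had 321.3, 249.6 and 248.4, against 188.4 in the control. Il12b, a subunit of interleukin 12, was at least 2.25-fold lower in both cocultures at its brightest probe set. Its other probe set had 16.4 in live and 20.7 in irradiated coculture, against 15.6 in the control. All of these were under the floor, so that probe set showed no decrease. Tumour cells can also make several products of this list, and their part was not tested.

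**Figure D3:**
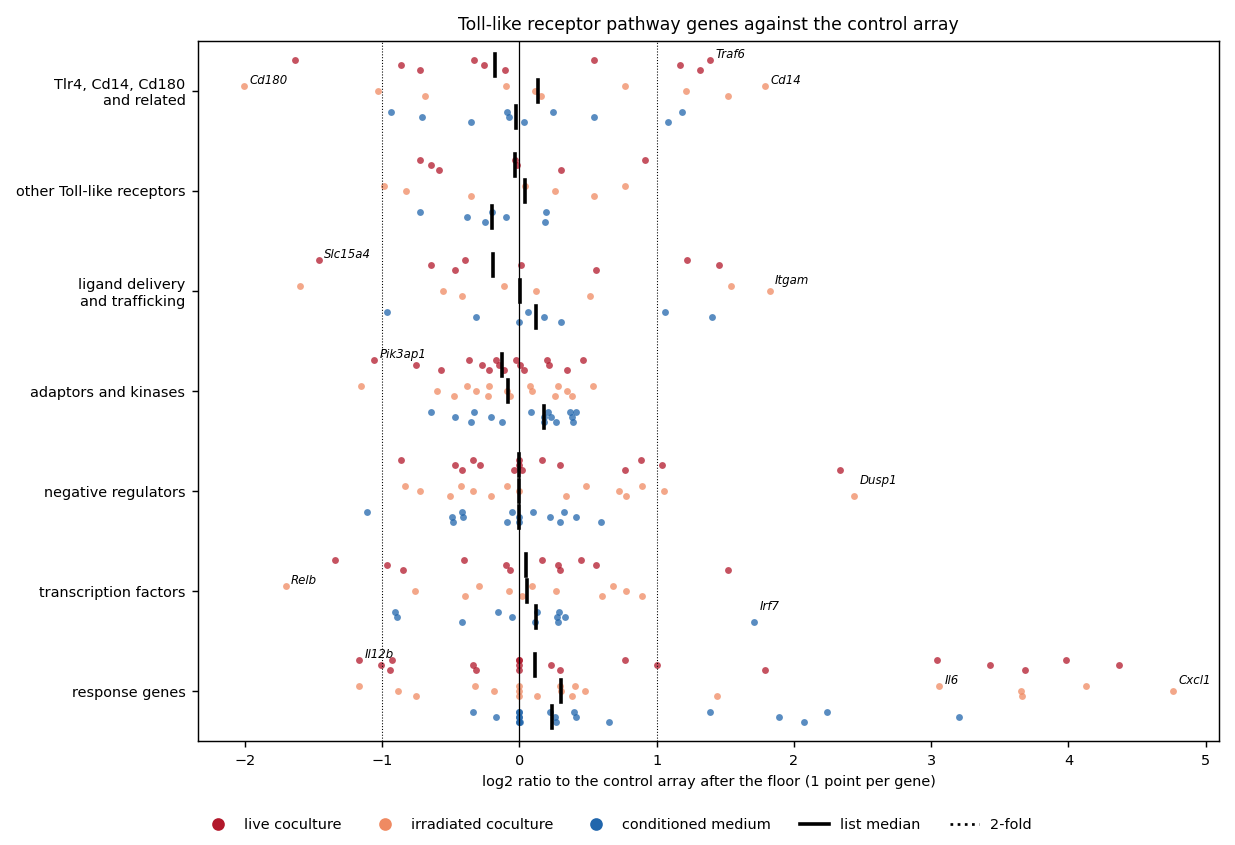
Log2 ratio to the control array of every measured gene in 7 lists of the Toll-like receptor pathway, 1 point per gene, in red for the live coculture, orange for the irradiated coculture and blue for conditioned medium, with black bars for list medians and dotted lines at 2-fold. Points are brightest probe sets, and 7, 6 and 5 of the 20 response genes lie beyond the right line in live coculture, the irradiated coculture and conditioned medium.

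For each member whose highest and lowest signals differed at least 2-fold, the genes with the most similar profile were those with the smallest root mean square distance over the 3 log2 ratios to the control, out of 9535 named genes that exceeded the floor on every array. With only 4 arrays many genes share any shape, and nothing is said of shared function. Nearest to Tlr4 were Dgke (distance 0.044), Nrn1 (0.060) and Elk3 (0.062), and Elk3 had 779.6 in live coculture, 821.3 in irradiated coculture and 495.8 in conditioned medium, against 361.3 in the control. Nearest to Cd14 were Ppp1r3b (0.095), Crem (0.10) and Cemip2 (0.12). Nearest to Cd180 was Cxcr4 (0.11), a chemokine receptor, with 597.7 in live coculture, 488.6 in irradiated coculture and 1043 in conditioned medium, against 1801 in the control, followed by Zfp704 and Dpp7 (0.13 each). Nearest to Tlr7 were Ifi207 (0.051), H2bc21 (0.064) and Mid1ip1 (0.065). Tlr8 was closest to Ssbp2 (0.013), Zbed6 (0.050) and Hsdl2 (0.058), and the brightest probe set of Traf6 to Rbpj (0.039), Grk5 (0.059) and Samsn1 (0.10).

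**Figure D4:**
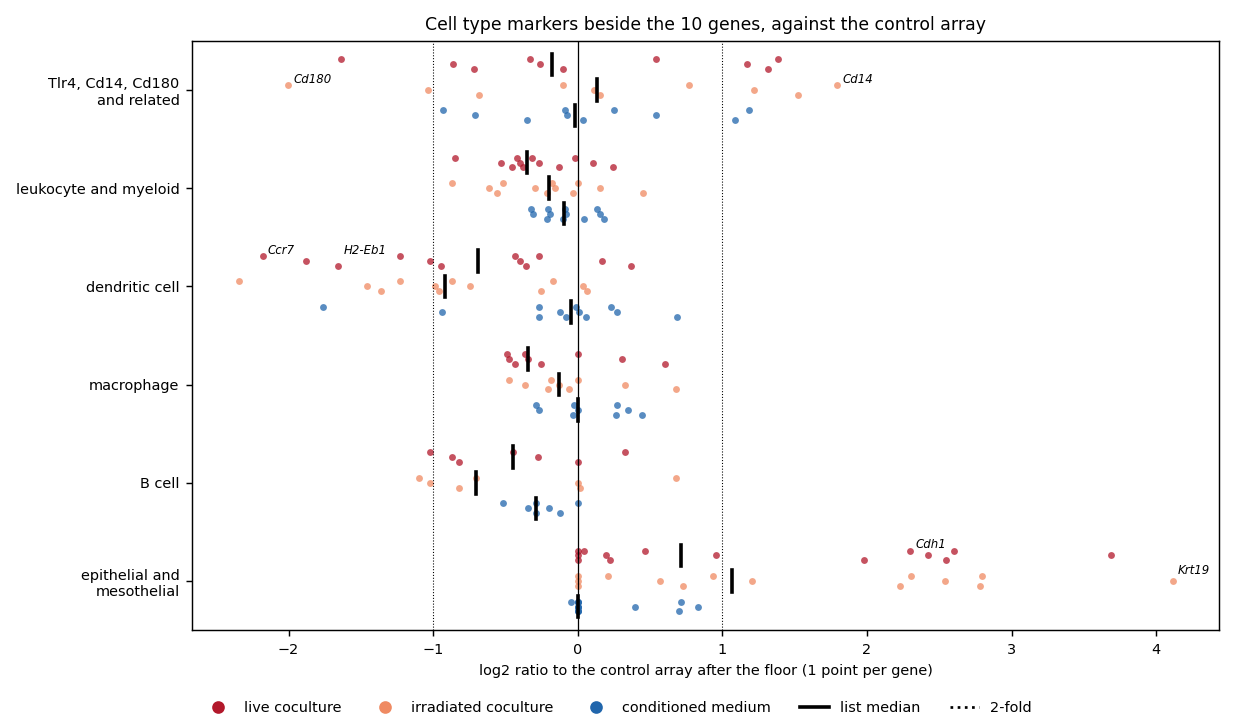
Log2 ratio to the control array of the 10 genes and of markers of 5 cell types, 1 point per gene, in red for the live coculture, orange for the irradiated coculture and blue for conditioned medium, with black bars for list medians and dotted lines at 2-fold. Leukocyte and myeloid markers stay inside 2-fold on all 3 arrays, dendritic cell markers have medians of -0.69 and -0.92 in live and irradiated cocultures against -0.05 in conditioned medium, and epithelial and mesothelial markers have medians of 0.71 and 1.07 in the cocultures against 0.00 in conditioned medium.

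Some dendritic cell markers were also lower in the cocultures. At least 2-fold lower were 5 of 12 in live coculture (background 2.23%) and 4 of 12 in irradiated coculture (background 2.25%). In conditioned medium it was 1 of 12 (background 1.41%). In each coculture 10 of the 12 lay below the control and 2 above it. Those 2 were Flt3 and Zbtb46, both dim, with log2 ratios of 0.37 and 0.17 in live coculture and 0.04 and 0.06 in irradiated coculture. H2-Eb1, an MHC class II gene, had 1348 in live coculture, 1653 in irradiated coculture and 3528 in conditioned medium, against 4244 in the control. Cd180 and Tlr7 were low on the same arrays, while Ly86 and Tlr2 stayed within 1.26-fold of the control there. Macrophage markers had 0 of 9 members 2-fold apart on any treated array, with summed signals of 19557 in live coculture, 21635 in irradiated coculture and 22883 in conditioned medium, against 22710 in the control. Of 12 neutrophil markers, 6 were at least 2-fold lower in live coculture, 6 in irradiated coculture and 5 in conditioned medium, and 0 were higher. Among them Hp, the haptoglobin gene, was 7.79-fold lower in live coculture, 5.56-fold lower in irradiated coculture and 4.12-fold lower in conditioned medium. Their summed signal was 3800, 4555 and 8253 in those treated conditions, against 8823 in the control, and most of it came from Mmp8, a granule collagenase, with 2635, 3102 and 6902, against 5677 in the control. The 7 mast cell and basophil markers summed to 295 in live coculture, 366 in irradiated coculture and 829 in conditioned medium, against 1412 in the control. The part of shifts in cell make-up in the member signals was not tested.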

How the data were processed

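RNA of 4 sorted BMDC samples, 1 per condition, was amplified in 1 round, labelled with biotin and hybridised to Affymetrix mouse arrays, per the labels' protocols. The authors deposited linear signal intensity values, 1 for each probe set, made in GCOS 1.4 with MAS5, per the submitters' processing notes. The scaling target is not given in the sources used here, but the mean without the lowest and highest 2% of signals was 150.0 on all 4 arrays, so the arrays were not rescaled. Subtraction of mismatch signal by MAS5 makes dim ratios noisy.

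From 45101 probe sets, 64 array controls were left out. A platform annotation table gave 34945 probe sets 1 gene, 932 several and 9160 none, and 34741 matched RefSeq (GRCm38.p6) by Entrez identifier. Only probe sets of 1 gene were used, 18193 genes in all, each read at its probe set of highest mean log2 value. Signals were floored at 44.3, ratios taken on the log2 scale and counted at 2-fold. With 1 array per condition no test was possible; precision is limited by the number of arrays. Alternatives were a floor at the 25th (12.9) or 75th (155.6) percentile, quantile normalization, median centring, the mean over probe sets and a 3-fold threshold. The steps were tested on simulated data. Analysis used Python 3.11.15, numpy 2.4.6, pandas 2.3.3 and matplotlib 3.10.9.

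The members and lists were chosen with earlier results of these data known. All members are named at every probe set. From each other list up to 5 genes at least 2-fold apart from the control, those with the largest ratios, could be named, with defining markers and the 3 genes nearest each varying member. Tlr1, Tlr9, Tlr12, Tlr13, Unc93b1, Ikbkg, Tnfaip3, Tollip, Irak3, Cebpb, Nfkb2, Jun, Mmp8, Tnf, Il12b and C1qa to C1qc fall outside this rule and were named after their values were seen. The labels give no sign of batches.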

Additional observations from a re-analysis of the deposited data

How the results depend on the processing

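The 60 member ratios were recomputed under 5 alternatives, which gave 300. Of these, 286 stayed on their side of 2-fold, 13 no longer reached it and 1 newly did. None that was or became 2-fold changed sign. The 286 is no measure of how stable the calls were, since most of the 60 had no 2-fold call to lose. The lower floor (12.9) could change none of its ratios, because every member's brightest probe set exceeded the main floor. The mean over probe sets could change only the 3 members with several probe sets. The ratios of Cd14 and Cd180 to the control kept their 2-fold calls in both cocultures under these 5 alternatives, but at a 3-fold threshold Cd14 was no longer counted in live coculture (2.49-fold). The 13 were ratios of Traf6, Tlr4, Tlr7, Tlr8 and Cd180. Traf6 lost its call in live coculture (log2 ratio 0.24), the irradiated coculture (0.37) and conditioned medium (0.04) with the floor at the 75th percentile, by the floor's construction, since its control signal was dim. As the mean over probe sets its ratios were 0.50, 0.57 and 0.23. The 3 probe sets above the floor on some or all arrays averaged at least 0.83, 0.95 and 0.38. After quantile normalization the conditioned medium ratio of Traf6 was 0.97. Tlr4 fell just short as the mean over probe sets, at 0.95 in live and 0.96 in irradiated coculture. Tlr7 in irradiated coculture was -0.97 after quantile normalization and -0.79 as that mean. In conditioned medium Tlr8 was 0.97 and Cd180 newly called at -1.05 after median centring. Between the irradiated coculture and conditioned medium Cd180 was -0.95 with the higher floor.

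As the mean over probe sets, the members called against the control were accordingly 1 higher in live and 1 higher in irradiated coculture. In irradiated coculture 1 was lower under that alternative and after quantile normalization. The 75th percentile floor left 2 higher in live and 2 higher in irradiated coculture, without Traf6. In conditioned medium 1 was higher under the 75th percentile floor, quantile normalization, centring and the mean over probe sets, and 1 was lower after centring. With a 3-fold threshold 0 members were higher and 1 lower in live coculture, 1 higher and 1 lower in irradiated coculture and 0 higher in conditioned medium. Against conditioned medium that threshold left 0 higher for the live coculture and 0 lower for the irradiated coculture, as did the 75th percentile floor for the irradiated coculture.

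Over all genes the counts also moved. As deposited, higher and lower genes numbered 612 and 406 in live coculture, 632 and 409 in irradiated coculture, and 419 and 256 in conditioned medium, against the control. They were 67 and 55 for the live against the irradiated coculture, and against conditioned medium 319 and 207 for the live and 354 and 225 for the irradiated coculture. In the order of these 6 comparisons, the 25th percentile floor gave 1463 and 782, 1396 and 817, 1089 and 597, 574 and 490, 894 and 677, and 886 and 740. The 75th percentile floor gave 270 and 243, 293 and 232, 170 and 137, 12 and 13, 153 and 88, and 176 and 87. The 3-fold threshold gave 194 and 77, 230 and 96, 61 and 37, 8 and 4, 104 and 37, and 125 and 35. The mean over probe sets gave 251 lower in live coculture, 263 in irradiated coculture and 145 in conditioned medium against the control, and 31 higher and 30 lower between the cocultures. Centring gave 408 lower in conditioned medium and 44 higher between the cocultures. Scaling also changed which direction held more genes. The share of calls that were higher was 60.1% in live coculture, 60.7% in irradiated coculture and 62.1% in conditioned medium as deposited, but 49.8%, 53.0% and 45.5% after quantile normalization and 46.7%, 52.5% and 42.4% after centring. Over genes that exceeded the floor, centring moved the median log2 ratio by -0.12 in live coculture, -0.07 in irradiated coculture and -0.11 in conditioned medium.

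No paired analysis was possible because each condition had 1 array.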
